A study of Arabidopsis thaliana with 12 samples.

Results

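The XTH genes of Arabidopsis encode xyloglucan endotransglucosylase/hydrolases. Of the 33 genes of the family in the gene reference, 15 had a named single-gene probe set among the 16764 non-control probe sets analysed here. Members were all single-gene probe sets whose gene carries an XTH symbol. The platform table named 7 of them (XTH16, XTH18, XTH19, XTH20, XTH27, XTH32 and XTH33). The other 8 (XTH4, XTH6, XTH7, XTH8, XTH17, XTH23, XTH30 and XTH31) were named only through the supplementary tables of the study, which list genes called changed in a mutant, so counts over all 15 carry that selection, and the main counts and the medians are also given over the 7. The remaining 18 genes of the family were not analysed here. Each member has 1 probe set of the kind designed against a single transcript, and cross-hybridisation between members was not tested.

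Xyloglucan is the main hemicellulose of the primary wall in dicots, where it binds to and lies between cellulose microfibrils. XTH enzymes cut a xyloglucan chain and join the new end either to another xyloglucan chain (endotransglucosylation) or to water (hydrolysis), and so rearrange or shorten the polymer in walls that grow or mature. Most members act as transglucosylases, while the small group IIIA of the family, to which XTH31 and XTH32 belong, holds hydrolases. Many members respond to hormones, among them gibberellin, auxin and brassinosteroid, and to touch.

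The arrays were hybridised with RNA from shoots of seedlings of 18 days in 4 genotypes with 3 biological replicates each, all in the Columbia-0 background and grown side by side. The wild type (wt) was compared with brm-1, a null allele of BRM, the ATPase of a SWI/SNF chromatin remodeling complex, with ga1-3, which lacks the first enzyme of gibberellin synthesis and was introgressed into Columbia-0, and with the double mutant ga1-3/brm-1. Since brm-1 is sterile, homozygotes were picked by genotyping from segregating progeny, and seeds of lines with ga1-3 were treated with gibberellin for germination and washed before sowing. The comparisons ask which genes depend on BRM, on gibberellin, or on both. Signals are given on the log2 scale after GC-RMA normalization. A change counts as called when limma, with all 12 arrays in 1 fit, gave a Benjamini-Hochberg adjusted p under 0.05 together with a fold over 1.5. A genotype mean under 4.58, the 25th percentile of all genotype means, is named a low signal. The 3 wild-type arrays serve all 3 mutants.

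The BRM probe set read between 7.84 and 8.28 on the 6 arrays of wt and ga1-3 and between 2.72 and 3.01 on the 6 arrays that carry brm-1, as the labels require, while GA1 had no probe set named here. Leaf markers were bright on all 12 arrays (LHCA1, CA1 and RCA, 3 of 6 in the list, 11.23 to 14.47), and no root or seed marker of the lists was among the named probe sets. The summed linear signal of the 3 leaf markers was 48500 to 50700 in wt, 48800 to 50800 in ga1-3, 32500 to 42900 in brm-1 and 36000 to 37100 in the double mutant. That of 3 of 6 flower markers (PI, SEP1 and SEP3) was 227 to 249, 102 to 129, 316 to 467 and 177 to 392 in the same order. Neither sum stands for each of its markers. Of the leaf markers, CA1 was called lower in brm-1 (log2 fold change -1.12, adjusted p = 0.00646), while LHCA1 (-0.17) and RCA (-0.40) were not called. LHCA1 was called lower in the double mutant (-0.64, adjusted p = 0.000256), while CA1 (-0.62) and RCA (-0.19) were not called. In brm-1 SEP1 fell (log2 fold change -1.46, adjusted p = 0.0117), while PI (0.33) and SEP3 (1.04) were higher and not called. In ga1-3 SEP3 was called lower (-2.10, adjusted p = 0.0119), while PI (0.04) and SEP1 (-1.06, adjusted p = 0.0636) were not called. In the double mutant PI and SEP1 were called lower (adjusted p = 0.0198 and 0.00113), and SEP3 (0.40) was not called. Both sums moved with genotype, and their part in the XTH results was not tested. The arrays measure RNA of whole shoots, so fewer cells of a type and less RNA per cell cannot be told apart. The third brm-1 array was unlike its replicates. On the first principal component of the deviations from genotype means it scored 37.8 where they scored -20.0 and -17.8 and the other 9 arrays -9.80 to 6.99. Results that rest on it are given with and without it.

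The family split in both directions in every mutant. In brm-1, XTH8, XTH19 and XTH32 rose and XTH6 and XTH27 fell, which is 5 of 15 members called where 14.7% of all probe sets were. In ga1-3, XTH7, XTH19 and XTH31 rose and XTH6 and XTH18 fell, again 5 of 15, beside 8.79% of all probe sets. In the double mutant 10 of 15 were called, beside 23.6% of all probe sets. There XTH7, XTH8, XTH19, XTH31 and XTH32 rose, and XTH4, XTH6, XTH23, XTH27 and XTH30 fell. Over the 7 members named by the platform table the counts were 3, 2 and 3. The median log2 fold change of the 15 members was -0.02 for brm-1, -0.27 for ga1-3 and -0.42 for the double mutant, beside 0.01, 0.02 and -0.02 over all probe sets. Over the 7 it was 0.45, -0.13 and 0.14, so the sign turned for brm-1 and for the double mutant and no common shift of the family can be read from the 15. Mutant and wild-type arrays did not overlap for 7 members in brm-1, for 10 in ga1-3 and for 11 in the double mutant, beside 39.4%, 33.9% and 53.3% of all probe sets, and for 3, 4 and 4 of the 7. XTH6 and XTH19 were called in all 3 mutants, as were 3.3% of all probe sets, and XTH4, XTH23 and XTH30 in the double mutant alone, as were 10.6%. XTH16, XTH17, XTH20 and XTH33 were called in none, and the share of all probe sets called in at least 1 mutant was 30.2%.

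**Figure D1:**
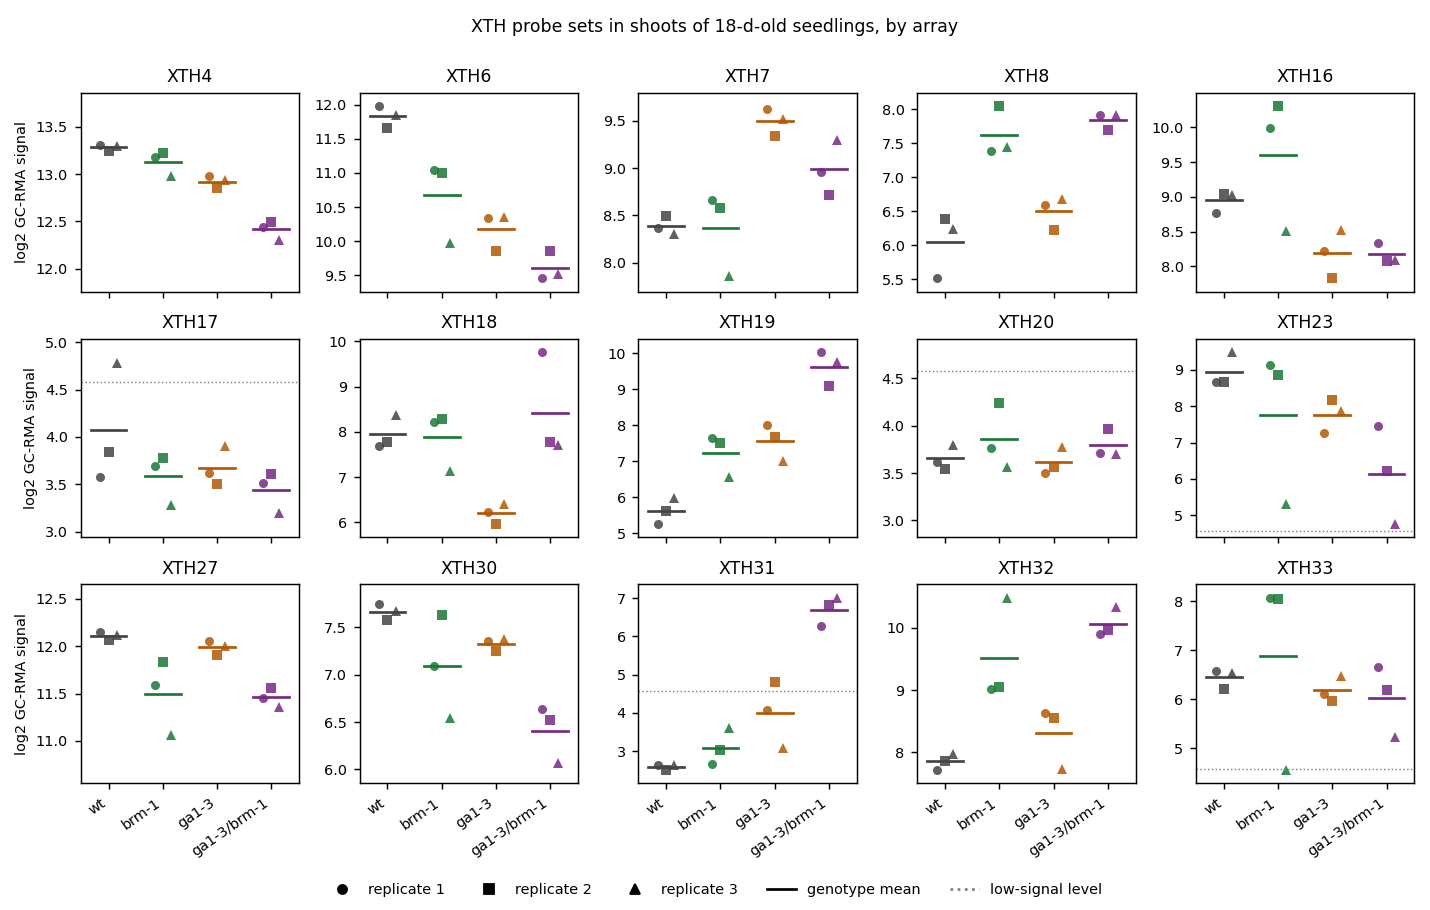
Log2 GC-RMA signal (vertical axes, scaled per panel) of the 15 XTH probe sets on each of the 12 arrays, by genotype, with a bar at the genotype mean and a dotted line at the low-signal level of 4.58. XTH19 and XTH31 are highest on the 3 double-mutant arrays, and the third brm-1 array (green triangle) lies far below the other 2 for XTH23 and XTH33.

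XTH19 belongs to a subgroup of closely related members (XTH17 to XTH20) known mainly from roots, and XTH19 and XTH20 are known from the reunion of cut flowering stems. In these shoots XTH19 was at 5.25, 5.62 and 5.98 in wt and at 7.65, 7.50 and 6.56 in brm-1. It read 7.997, 7.68 and 6.999 in ga1-3 and 10.04, 9.10 and 9.76 in ga1-3/brm-1. No wild-type array reached a mutant array and no single-mutant array reached a double-mutant array, while the arrays of brm-1 and ga1-3 overlapped. The log2 fold change against wt was 1.61 ± 0.36 (standard error, n = 3 arrays a genotype) for brm-1, 1.94 ± 0.36 for ga1-3 and 4.01 ± 0.36 for the double mutant (adjusted p = 0.00965, 0.00624 and 2.61e-05), which are 3.06-fold, 3.84-fold and 16.1-fold. The double mutant was also above ga1-3 (2.07 ± 0.36, adjusted p = 0.00168) and above brm-1 (2.40 ± 0.36, adjusted p = 0.00268). The levels thus ran from wt over brm-1 and ga1-3 to the double mutant, and the middle 2 did not differ beyond their spread (brm-1 minus ga1-3 -0.33, 95% confidence interval -1.12 to 0.47, adjusted p = 0.578). All 5 called differences stayed called when any 1 array was left out.

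The other members of the subgroup were called less widely or not at all. XTH18, the next gene to XTH19 on chromosome 4, was at 7.69, 7.79 and 8.36 in wt and at 6.23, 5.96 and 6.40 in ga1-3. It was at 8.22, 8.29 and 7.13 in brm-1 and at 9.76, 7.77 and 7.71 in the double mutant, so the ga1-3 arrays lay below all others and the first double-mutant array lay above all others. XTH18 fell in ga1-3 by 1.75 ± 0.51 on the log2 scale (adjusted p = 0.0454), where XTH19 rose, and was higher in the double mutant than in ga1-3 by 2.21 ± 0.51 (adjusted p = 0.0074). The fall in ga1-3 was lost when any array of wt, of ga1-3 or brm-1 replicate 1 or 2 was left out (8 of 12 fits, adjusted p up to 0.142), and the difference between the double mutant and ga1-3 held in all 12. XTH17 was a low signal in every genotype (3.19 to 4.79 on the 12 arrays), as was XTH20 (3.50 to 4.24), and neither was called in any comparison with all arrays. Without wt replicate 1, XTH17 was called in the double mutant (-0.88, adjusted p = 0.0347). For XTH20 the 95% confidence intervals of the 3 log2 fold changes against wt lay within -0.41 and 0.57, and for XTH17 within -1.24 and 0.23.

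XTH31 and XTH32, the hydrolase-type members of group IIIA, both rose in the double mutant. Among the single mutants, XTH31 was called in ga1-3 and XTH32 in brm-1. XTH31 was at 2.64, 2.51 and 2.64 in wt and at 2.66, 3.02 and 3.60 in brm-1. It was at 4.08, 4.79 and 3.09 in ga1-3 and at 6.27, 6.82 and 7.01 in the double mutant. The means of wt, brm-1 and ga1-3 were low signals, and only the double-mutant arrays were all above that level. Against wt the log2 fold change was 0.50 ± 0.38 for brm-1 (not called, adjusted p = 0.414), 1.39 ± 0.38 for ga1-3 (adjusted p = 0.0373) and 4.11 ± 0.38 for the double mutant (adjusted p = 3.35e-05, 17.2-fold). Folds from a low signal depend on how the dim values were corrected and are not exact. Probe sets were kept when detected in at least 1 replicate of a genotype, and XTH31 was named only through the study's lists of called genes. It may thus have entered through the double mutant, where it is high, and its tests carry that selection. The call in ga1-3 was lost in 7 of 12 fits that leave out 1 array (adjusted p up to 0.11), and those of the double mutant against wt, against ga1-3 (2.71 ± 0.38, adjusted p = 0.000553) and against brm-1 (3.61 ± 0.38, adjusted p = 0.000479) held in all 12. The difference of XTH31 between brm-1 and ga1-3 was not called (-0.89 ± 0.38, adjusted p = 0.124) and was called without the third ga1-3 array (-1.34, adjusted p = 0.0158).

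XTH32 was at 7.72, 7.87 and 7.98 in wt and at 9.02, 9.05 and 10.48 in brm-1. It was at 8.63, 8.56 and 7.73 in ga1-3 and at 9.91, 9.96 and 10.34 in the double mutant. The arrays with brm-1 were above all arrays without it, and ga1-3 overlapped wt. The log2 fold change against wt was 1.66 ± 0.37 in brm-1 (adjusted p = 0.00945), 2.21 ± 0.37 in the double mutant (adjusted p = 0.00104) and 0.45 ± 0.37 in ga1-3 (adjusted p = 0.478, 95% confidence interval -0.36 to 1.27). The double mutant was above ga1-3 by 1.76 ± 0.37 (adjusted p = 0.00458). The direct difference between brm-1 and ga1-3 (1.21 ± 0.37, adjusted p = 0.0381) was lost in 8 of 12 fits that leave out 1 array, among them the fit without the third brm-1 array (0.73, adjusted p = 0.0722).

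**Figure D2:**
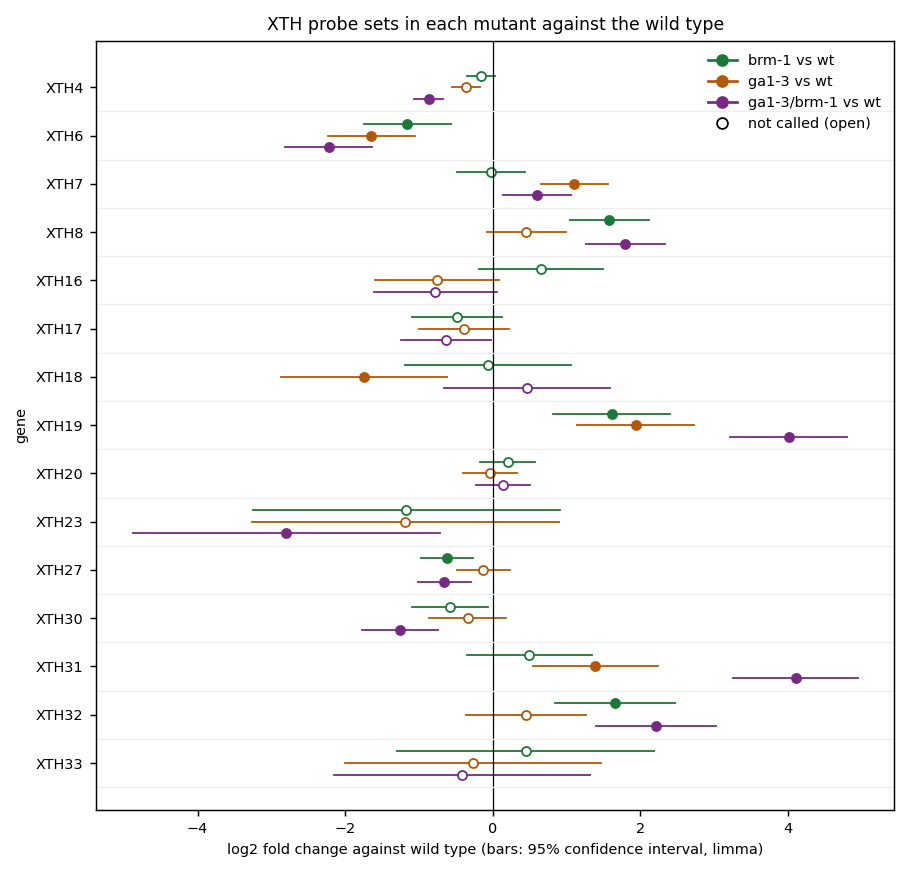
Log2 fold change of each XTH probe set in the single mutants and the double mutant against wt (horizontal axis) with its 95% confidence interval, filled where called and open where not. XTH6 lies left of 0 and XTH19 right of 0 with filled points in all 3 mutants, and XTH8 and XTH32 are filled only in the 2 lines with brm-1.

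The next 4 members, XTH4, XTH6, XTH7 and XTH8, were called in different sets of mutants. XTH8, called in both lines with brm-1, was at 5.51, 6.39 and 6.23 in wt, 7.38, 8.04 and 7.45 in brm-1, 6.60, 6.22 and 6.68 in ga1-3, and 7.92, 7.69 and 7.92 in the double mutant. The 6 arrays with brm-1 lay above the 6 without it. XTH8 rose by 1.58 ± 0.24 in brm-1 (adjusted p = 0.00125) and by 1.80 ± 0.24 in the double mutant (adjusted p = 0.000293), and was higher in the double mutant than in ga1-3 by 1.34 ± 0.24 (adjusted p = 0.00212) and in brm-1 than in ga1-3 by 1.13 ± 0.24 (adjusted p = 0.00796). The double mutant and brm-1 did not differ beyond their spread (0.21, 95% confidence interval -0.32 to 0.75, adjusted p = 0.619), nor did ga1-3 and wt (0.46, interval -0.08 to 0.99, adjusted p = 0.251). The 4 called differences held whichever array was left out.

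XTH6 moved the other way from XTH19, and fell in all 3 mutants. It was at 11.98, 11.65 and 11.86 in wt, 11.04, 11.003 and 9.97 in brm-1, 10.34, 9.85 and 10.35 in ga1-3, and 9.46, 9.86 and 9.51 in the double mutant. All wild-type arrays were above all mutant arrays. The ga1-3 arrays overlapped those of brm-1 and those of the double mutant, while the double-mutant arrays lay below those of brm-1. The log2 fold change was -1.16 ± 0.27 for brm-1, -1.65 ± 0.27 for ga1-3 and -2.22 ± 0.27 for the double mutant (adjusted p = 0.0112, 0.00307 and 0.000142), and none of the 3 calls was lost when 1 array was left out. The double mutant was also below brm-1 (-1.06 ± 0.27, adjusted p = 0.025).

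XTH4, also known as EXGT-A1 and expressed in growing tissue, had a narrow spread and was called against wt in the double mutant alone. It was at 13.31, 13.24 and 13.30 in wt, 13.18, 13.22 and 12.98 in brm-1, 12.98, 12.85 and 12.93 in ga1-3, and 12.45, 12.49 and 12.31 in the double mutant, whose arrays lay below all others. The fall in the double mutant was 1.83-fold (log2 fold change -0.87 ± 0.09, adjusted p = 5.11e-05), and the difference from brm-1 was called as well (-0.71 ± 0.09, adjusted p = 0.00109). The changes in ga1-3 (-0.36 ± 0.09, adjusted p = 0.0223, 1.29-fold) and from ga1-3 to the double mutant (-0.51 ± 0.09, adjusted p = 0.00171, 1.42-fold) passed the adjusted p but not the fold. XTH7 was at 8.37, 8.49 and 8.31 in wt, 8.66, 8.58 and 7.86 in brm-1, 9.63, 9.34 and 9.52 in ga1-3, and 8.96, 8.72 and 9.29 in the double mutant. Its ga1-3 arrays were above all others, with a rise of 1.11 ± 0.21 against wt (adjusted p = 0.00661) and a level in brm-1 below that in ga1-3 (-1.13 ± 0.21, adjusted p = 0.00351). The smaller rise in the double mutant (0.60 ± 0.21, adjusted p = 0.0423) was lost in 8 of 12 fits with 1 array left out (adjusted p up to 0.15).

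XTH27 (EXGT-A3), known from the maturing water-conducting cells of leaf veins, and XTH30 and XTH33 are the members of group IIIB with a named probe set. Of these, XTH27 and XTH30 fell in the double mutant. XTH27 was at 12.15, 12.07 and 12.12 in wt, 11.59, 11.83 and 11.06 in brm-1, 12.06, 11.90 and 12.001 in ga1-3, and 11.46, 11.56 and 11.36 in the double mutant. The 6 arrays with brm-1 lay below the 6 without it. The fall was 1.54-fold in brm-1 (-0.62 ± 0.16, adjusted p = 0.0201) and 1.57-fold in the double mutant (-0.65 ± 0.16, adjusted p = 0.00923). Both were just over the fold limit, and the one in brm-1 was lost without the third brm-1 array (-0.40, adjusted p = 0.0228), without wt replicate 1 (adjusted p = 0.058) and without wt replicate 3 (adjusted p = 0.057). XTH30 was at 7.74, 7.58 and 7.67 in wt, 7.09, 7.63 and 6.54 in brm-1, 7.35, 7.25 and 7.37 in ga1-3, and 6.64, 6.53 and 6.06 in the double mutant. Its double-mutant arrays were below those of wt and ga1-3 (-1.26 ± 0.23, adjusted p = 0.00206, and -0.92 ± 0.23, adjusted p = 0.0126) and overlapped those of brm-1. The second of these differences was lost without the third double-mutant array (-0.75, adjusted p = 0.05). In brm-1 XTH30 was not called (-0.58 ± 0.23, adjusted p = 0.109), and was called without the second brm-1 array (-0.85, adjusted p = 0.0154).

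XTH33, a member known for its place at the plasma membrane, was called in no comparison with all 12 arrays, and this rests on 1 array. It was at 6.58, 6.21 and 6.54 in wt, 6.10, 5.96 and 6.48 in ga1-3 and 6.67, 6.18 and 5.24 in the double mutant, and at 8.07, 8.05 and 4.55 in brm-1. The first 2 brm-1 arrays were the highest of the 12 and the third was the lowest. With all arrays the log2 fold change in brm-1 was 0.44 with a 95% confidence interval of -1.29 to 2.18. Without the third brm-1 array it was 1.61 (adjusted p = 0.0106), and XTH33 was then also called between the double mutant and brm-1 (-2.03, adjusted p = 0.00603), between brm-1 and ga1-3 (1.88, adjusted p = 0.00511) and in the interaction (-1.77, adjusted p = 0.0415).

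XTH16 and XTH23 of the largest group were split by the same array. XTH16 was at 8.77, 9.04 and 9.03 in wt, 9.98, 10.30 and 8.51 in brm-1, 8.22, 7.83 and 8.53 in ga1-3, and 8.34, 8.08 and 8.09 in the double mutant. The third brm-1 array was below wt and the other 2 above it. With all arrays XTH16 was higher in brm-1 than in ga1-3 (1.40 ± 0.38, adjusted p = 0.0235) and lower in the double mutant than in brm-1 (-1.43 ± 0.38, adjusted p = 0.0318), and was called against wt in no mutant. Without that array it was called against wt in brm-1 (1.20, adjusted p = 0.00299), in ga1-3 (-0.75, adjusted p = 0.0195) and in the double mutant (-0.78, adjusted p = 0.00687). XTH23, also known as XTR6, was at 8.67, 8.67 and 9.49 in wt, 9.14, 8.87 and 5.30 in brm-1, 7.25, 8.16 and 7.87 in ga1-3, and 7.45, 6.21 and 4.76 in the double mutant. Replicate 3 was the lowest array both in brm-1 and in the double mutant. XTH23 fell in the double mutant by 2.80 ± 0.94 on the log2 scale (adjusted p = 0.038), a call lost in 7 of 12 fits with 1 array left out (adjusted p up to 0.137). The log2 fold changes in the single mutants were -1.17 ± 0.94 for brm-1 and -1.18 ± 0.94 for ga1-3 and were not called. The first of these rests on the third brm-1 array and was 0.062 without it.

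**Figure D3:**
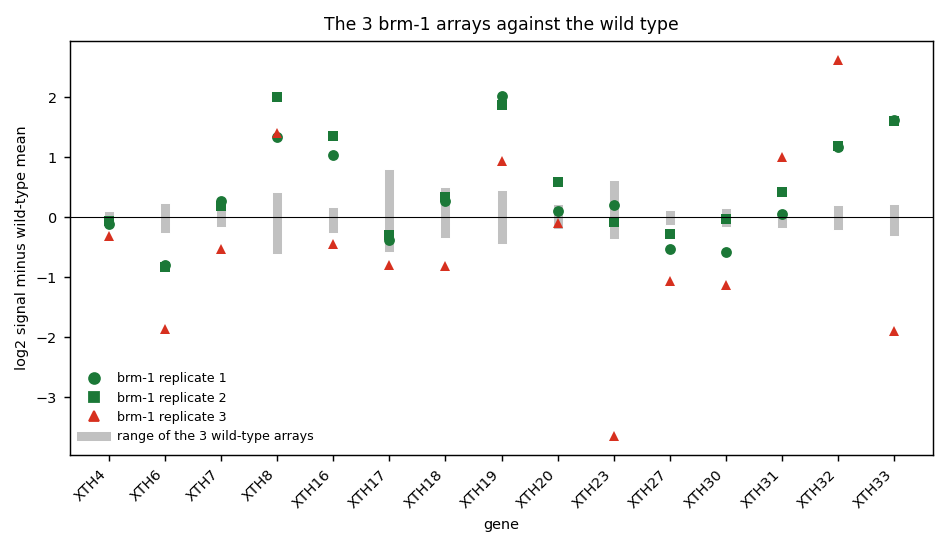
Log2 signal of each brm-1 array minus the wild-type mean (vertical axis) for the 15 XTH probe sets, with grey bars spanning the lowest to the highest array of wt. The third array (red triangle) lies well below the other 2 for XTH23 and XTH33 and above them for XTH32.

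For 13 of the 15 members the third brm-1 array was the one that stood apart from a closer pair, as it was for 47.2% of all probe sets. It lay below the mean of the other 2 arrays for 13 members and above it for XTH31 and XTH32, while it lay below for 47.1% of all probe sets. The largest distances were those of XTH23 (-3.70) and XTH33 (-3.51). Without this array the number of members called against wt was 6 for brm-1, 6 for ga1-3 and 11 for the double mutant, of which 4, 5 and 10 were among those called with all arrays. Over the 7 it was 4, 3 and 4. The corresponding shares of all probe sets were 13.9%, 9.83% and 24.4%. What sets the array apart was not tested.

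Against ga1-3, the double mutant differed in 6 of 15 members, beside 20.8% of all probe sets. XTH8, XTH18, XTH19, XTH31 and XTH32 were higher and XTH30 was lower, and for the 7 members named by the platform table the count was 3. Against brm-1 it differed in 5 of 15 members, beside 8.76% of all probe sets. XTH19 and XTH31 were higher and XTH4, XTH6 and XTH16 were lower, and 2 of these 5 are among the 7. Without the third brm-1 array this count was 9 (4 of the 7, beside 9.42% of all probe sets), with XTH23 (-2.86, adjusted p = 0.0177), XTH30 (-0.95, adjusted p = 0.0112), XTH32 (1.03, adjusted p = 0.0242) and XTH33 added, and the 5 stayed among them. The call for XTH6 (-1.06 ± 0.27, adjusted p = 0.025) was lost without brm-1 replicate 1 or 2 or without replicate 1 or 3 of the double mutant (adjusted p up to 0.0906), and that for XTH16 in 5 of 12 fits with 1 array left out (adjusted p up to 0.109). The single mutants, compared directly, differed in 5 of 15 members, beside 14.7% of all probe sets, and in 3 of the 7. XTH8, XTH16, XTH18 (1.68 ± 0.51, adjusted p = 0.037) and XTH32 were higher in brm-1, and XTH7 was higher in ga1-3. Of these, XTH7 and XTH8 stayed called whichever array was left out, and XTH16 and XTH18 were lost in 4 and 6 of 12 such fits. Without the third brm-1 array 6 were called (3 of the 7, beside 13.1% of all probe sets), of which 4 were among these 5, with XTH6 (0.84, adjusted p = 0.0108) and XTH33 added and XTH32 lost.

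The interaction asks whether the effects of the 2 mutations add on the log2 scale, as the double mutant minus both single mutants plus wt. It was called for 1 of 15 members, XTH31, beside 8.9% of all probe sets, and for 0 of the 7 named by the platform table. For XTH31 the single-mutant changes summed to 1.89 and the double mutant reached 4.11, an excess of 2.22 ± 0.54 (adjusted p = 0.0325, 95% confidence interval 1.02 to 3.42). This call was lost in 8 of 12 fits with 1 array left out, where the excess was 2.00 to 2.26 in the 8 and the adjusted p at most 0.0735. The interaction of XTH31 also carries the selection described for this gene above. For XTH19 the sum was 3.55 and the double mutant 4.01, and the difference of 0.46 ± 0.51 was within its error (adjusted p = 0.624, interval -0.67 to 1.58). XTH18 had the largest excess of the 15 (2.28 ± 0.72), which did not pass the test (adjusted p = 0.0763) and drew on the high first array of the double mutant. For XTH32 (0.10 ± 0.52), XTH8 (-0.24 ± 0.34) and XTH6 (0.59 ± 0.38) the interaction was not called either. Without the third brm-1 array 4 members were called (2 of the 7, beside 10.5% of all probe sets), namely XTH31, XTH4 (-0.42, adjusted p = 0.0484), XTH16 (-1.22, adjusted p = 0.0226) and XTH33.

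**Figure D4:**
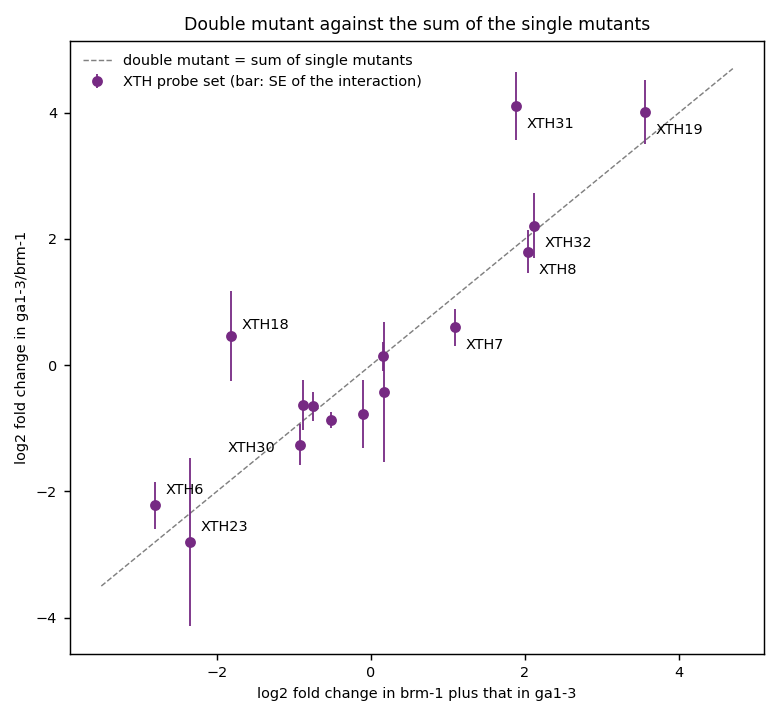
Log2 fold change in ga1-3/brm-1 against wt (vertical axis) against the sum of the log2 fold changes in brm-1 and ga1-3 (horizontal axis) for the 15 XTH probe sets, with the standard error of the interaction as bars and a dashed line where the double mutant equals the sum. XTH31 (1.89 against 4.11) and XTH18 lie above the line, and XTH19, XTH32 and XTH8 lie within about 1 bar of it.

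Among the members on chromosome 4, which also carries GA1, XTH23 was the nearest to GA1 in gene order, 2289 genes away, followed by XTH18 and XTH19 at 2781 and 2782 and XTH7 at 3598. Whether DNA linked to ga1-3 reaches so far in the introgressed line was not tested.

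Of 14 genes listed for the making of xyloglucan, 6 had a named probe set, and 1 of these was called against wt. AXY4, which adds acetyl groups to xyloglucan, fell in all 3 mutants. It read 7.47, 7.62 and 7.13 in wt, 5.68, 6.13 and 5.06 in brm-1, 6.24, 6.11 and 6.83 in ga1-3, and 6.23, 6.12 and 6.50 in the double mutant. All mutant arrays were below those of wt, with log2 fold changes of -1.78 ± 0.27, -1.02 ± 0.27 and -1.13 ± 0.27 (adjusted p = 0.00117, 0.0324 and 0.00803). The call in ga1-3 was lost in 4 of 12 fits with 1 array left out (adjusted p up to 0.109). None of the 5 CSLC genes, which include CSLC4 for the glucan backbone, was called against wt in any mutant. Between the single mutants CSLC4 was lower in brm-1 than in ga1-3 (-1.08 ± 0.22, adjusted p = 0.00647) and CSLC8 was higher (0.60 ± 0.10, adjusted p = 0.00214, 1.51-fold, lost in 3 of 12 fits with 1 array left out as the fold fell under 1.5). The mean of CSLC8 in ga1-3 (4.53) was a low signal.

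Of the glycosidases that trim xyloglucan side chains and ends, 4 of 5 had a named probe set. BGAL10, a beta-galactosidase, was at 7.99, 8.12 and 8.04 in wt and at 9.36, 9.32 and 9.22 in brm-1, a rise of 1.25 ± 0.16 (adjusted p = 0.00043), and rose by 0.75 ± 0.16 in the double mutant (adjusted p = 0.00415). AXY8, a fucosidase, rose in brm-1 alone of the 3 mutants by the call (0.95 ± 0.19, adjusted p = 0.00532) and was lower in the double mutant than in brm-1 (-0.85 ± 0.19, adjusted p = 0.0154), a difference lost without the third double-mutant array (adjusted p = 0.0526). XYL1, an alpha-xylosidase, fell in ga1-3 (-0.74 ± 0.15, adjusted p = 0.00838) and was higher in the double mutant than in ga1-3 (0.79 ± 0.15, adjusted p = 0.00234). BGLC1 was called in none. The 3 called genes were named only through the study's tables of called genes, and so was AXY4.

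Other wall and hormone genes often measured beside XTH genes were few in the named table. Of 7 genes for cellulose of the primary wall, 2 had a named probe set. CESA2, a subunit of cellulose synthase, fell in brm-1 (-1.01 ± 0.09, adjusted p = 7.13e-05) and in the double mutant (-0.89 ± 0.09, adjusted p = 6.18e-05). Its fall in ga1-3 (-0.53 ± 0.09, adjusted p = 0.0048, 1.44-fold) passed the adjusted p but not the fold. COB, the other one, was not called. Of 3 touch genes, 2 had a named probe set. TCH3, a calmodulin-like gene, fell in brm-1 (-1.74 ± 0.34, adjusted p = 0.00462) and in the double mutant (-1.12 ± 0.34, adjusted p = 0.0234), the second of these being lost without wt replicate 2 or 3 or the third double-mutant array (adjusted p up to 0.0781). TCH1, a calmodulin, rose in the double mutant (0.63 ± 0.07, adjusted p = 0.000136). Its rises in brm-1 (0.46 ± 0.07, adjusted p = 0.0019, 1.37-fold) and in ga1-3 (0.51 ± 0.07, adjusted p = 0.00204, 1.42-fold) passed the adjusted p but not the fold. Of 10 brassinosteroid genes, 4 had a named probe set. BAS1, which inactivates brassinosteroids, fell in brm-1 (-0.97 ± 0.13, adjusted p = 0.000498) and rose in ga1-3 (2.05 ± 0.13, adjusted p = 1.03e-05) and in the double mutant (0.77 ± 0.13, adjusted p = 0.000997). BES1, a transcription factor of the pathway whose probe set is of a kind that can match more than 1 transcript, fell in ga1-3 (-1.04 ± 0.10, adjusted p = 0.000195). In brm-1 BES1 was higher (0.56 ± 0.10, adjusted p = 0.00327, 1.47-fold), short of the fold limit. The receptor gene BRI1 (-0.92 ± 0.18, adjusted p = 0.00273) and the synthesis gene CPD (-0.69 ± 0.11, adjusted p = 0.00064) fell in the double mutant. CPD was also lower in brm-1 (-0.43 ± 0.11, adjusted p = 0.0157, 1.35-fold), again short of the fold limit. The members of these lists that were called carry the same selection as the 8 XTH genes above.

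The genes with the pattern most like that of a member were taken by the Pearson correlation of log2 signals over the 12 arrays, among 10942 other named probe sets. The arrays fall into 4 genotypes that all genes share, and the correlations are descriptions. For XTH19 they were AT5G47060 (0.99), PCK1, a phosphoenolpyruvate carboxykinase (0.962), HL (0.961), WNK4 (0.959) and MAB1, a subunit of pyruvate dehydrogenase (0.957). AT5G47060 had log2 fold changes of 1.03, 1.19 and 2.44 in brm-1, ga1-3 and the double mutant, so it had the same order of levels as XTH19 with smaller steps. For XTH8 they were AT2G35120 (0.977), the tubulin gene TUB1 (0.968), AT5G22580 (0.958), CYS1 (0.95) and AT3G16670 (0.949). TUB1 had log2 fold changes of 2.53, 0.99 and 2.79, highest in the lines with brm-1 as XTH8 was. For XTH33 they were EXLA1, an expansin-like gene (0.934), EXO, a gene of brassinosteroid-promoted growth (0.922), AT1G23030 (0.915), AT1G61100 (0.879) and AT5G66940 (0.849). After each genotype's mean was taken off, the correlations were 0.529 to 0.905 for XTH19, 0.632 to 0.869 for XTH8 and 0.882 to 0.963 for XTH33. The third brm-1 array is 1 of the arrays behind them.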

How the data were processed

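Shoot RNA of 4 genotypes was measured on 12 ATH1 arrays, 3 biological replicates each. According to the methods and the submitters' processing notes, the authors normalized the signals by GC-RMA in Partek (versions not given in the sources used here) and kept probe sets detected in at least 1 replicate of a genotype. The deposited log2 values of 16824 probe sets were used as given, 60 controls were left out, and 16764 were tested. Arrays have no read depth, and their number limits the precision. Genotype was the only term of 1 fit per probe set over the 12 arrays (limma 3.58.1, R 4.3.3, eBayes), and p-values were adjusted by Benjamini-Hochberg over all tested probe sets. Calls required an adjusted p below 0.05 plus a change of more than 1.5-fold (interaction: the adjusted p alone). The methods' second ANOVA factor is unnamed and was not modelled. The procedure was tested on simulated data. The platform table named a single gene for 9267 probe sets and the study's tables for 1676 more. Gene order comes from TAIR10.1. Named are all XTH members, up to 4 called members of each list with the largest change against wt, and the 5 probe sets most like XTH19, XTH8 and XTH33. CSLC4, CSLC8, COB, BGLC1 and the marker genes lie outside that rule. Members and lists were chosen with earlier results of these data known. Alternatives were another centring or normalization, ordinary variance, an intensity trend, a replicate block, 2 genotypes only, stricter thresholds, no dim probe sets, and each array left out. Plots used matplotlib 3.10.9 in Python 3.11.15.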

Additional observations from a re-analysis of the deposited data

Results flagged for a closer look

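By the interaction in limma, the effect of brm-1 differed with and without ga1-3 for 1 of 15 XTH genes and for 4 other named genes. Of all probe sets, 8.9% had a called interaction. Most of the other named genes were chosen for being called, so their number cannot be set against that share. XTH31 had an interaction of 2.22 ± 0.54 on the log2 scale (adjusted p = 0.0325). AXY4 had 1.67 ± 0.38 (adjusted p = 0.0258), with a fall in brm-1 against wt and no called difference between the double mutant and ga1-3. BGAL10 had -0.99 ± 0.22 (adjusted p = 0.0252). Its log2 fold change was 1.25 in brm-1 against wt and 0.26 in the double mutant against ga1-3 (adjusted p = 0.247, not called). CESA2 had 0.65 ± 0.13 (adjusted p = 0.0175). Its log2 fold change was -1.01 in brm-1 against wt and -0.36 in the double mutant against ga1-3 (adjusted p = 0.0128, 1.29-fold, not called). BES1 had 0.63 ± 0.14 (adjusted p = 0.0246). Its log2 fold change was 0.56 in brm-1 against wt (not called) and 1.19 in the double mutant against ga1-3 (adjusted p = 4.31e-05). BES1 fell in ga1-3 and was not called in the double mutant against wt. The interactions of XTH31, AXY4, BGAL10 and BES1 were lost in 8, 7, 5 and 2 of the 12 fits with 1 array removed, while CESA2 kept its call in all 12. No other member of the XTH family had a called interaction with all 12 arrays.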

How the results depend on the processing

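The 105 log2 fold changes of the XTH members (15 members, 7 comparisons) include 37 calls, of which 25 held in all 12 fits that leave out 1 array. Of 37 calls of the other wall and hormone genes, 28 held in all 12. No call changed direction under any alternative. With all arrays kept, centring each array, an intensity trend and leaving out dim probe sets changed no call of a member, and quantile normalization lost 1 (XTH18 in ga1-3, adjusted p = 0.051). With ordinary variance the number of members called became 8 in the double mutant (XTH7 and XTH23 lost) and 3 in ga1-3 against wt, 3 between the double mutant and brm-1, 2 between brm-1 and ga1-3, and 0 in the interaction. At an adjusted p under 0.01 it was 3 in brm-1, 3 in ga1-3, 3 between the double mutant and brm-1, 2 between brm-1 and ga1-3, and 0 in the interaction. At that threshold XTH7 and XTH23 were lost in the double mutant against wt, and XTH30 between the double mutant and ga1-3. With a fold over 2 it was 7 in the double mutant (XTH4, XTH7 and XTH27 lost) and 4 in brm-1 (XTH27 lost), and XTH30 between the double mutant and ga1-3 and XTH4 between the double mutant and brm-1 were lost. With the arrays of the 2 genotypes only, XTH16 was gained in ga1-3 and in the double mutant, XTH27 was lost in brm-1 and XTH31 in ga1-3, and the number was 3 between the double mutant and brm-1 and 3 between brm-1 and ga1-3. Same-numbered arrays correlated from -0.198 to 0.119 in their deviations from genotype means (median -0.0616, 18 pairs) and other pairs from -0.193 to 0.243. The labels do not say whether same-numbered arrays were processed together, and 3 arrays a genotype are too few to decide it. With the replicate block the number called was 3 in ga1-3, 0 in the interaction, 5 in brm-1 and 9 in the double mutant against wt. XTH16 between the double mutant and brm-1 and XTH32 between brm-1 and ga1-3 were lost as well. Leaving out 1 array gave 4 to 6 members in brm-1, 3 to 6 in ga1-3, 8 to 11 in the double mutant, 5 to 6 between the double mutant and ga1-3, 3 to 9 between the double mutant and brm-1, 2 to 6 between brm-1 and ga1-3, and 0 to 4 in the interaction. Of the differences not called, 21 changed sign when 1 array was left out. Their lowest and highest log2 values follow. In brm-1 against wt they belonged to XTH7 (-0.17 to 0.23), XTH18 (-0.27 to 0.31), XTH23 (-1.86 to 0.062) and XTH33 (-0.15 to 1.61). In ga1-3 against wt they belonged to XTH20 (-0.12 to 0.031). In the double mutant against wt they belonged to XTH18 (-0.21 to 0.82). In the double mutant against ga1-3 they belonged to XTH16 (-0.20 to 0.15) and XTH33 (-0.47 to 0.24). In the double mutant against brm-1 they belonged to XTH18 (-0.14 to 0.88), XTH20 (-0.21 to 0.13) and XTH27 (-0.25 to 0.14). In brm-1 against ga1-3 they belonged to XTH17 (-0.19 to 0.060), XTH19 (-0.61 to 0.012), XTH23 (-0.68 to 1.24) and XTH30 (-0.51 to 0.035). In the interaction they belonged to XTH8 (-0.41 to 0.025), XTH17 (-0.11 to 0.49), XTH20 (-0.17 to 0.17), XTH23 (-1.68 to 0.24), XTH27 (-0.13 to 0.26) and XTH32 (-0.19 to 0.58). Signals near or under 4.58 limit what can be said of XTH17, XTH20 and, outside the double mutant, XTH31. The cause of these changes was not tested.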
